A study of Arabidopsis thaliana with 9 samples.

Results

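The genes described here are nuclear genes for the proteins of photosystem I, photosystem II, the mobile electron carriers between and behind them, the Rieske protein of the cytochrome b6f complex and the chloroplast ATP synthase. They were taken from a list of 34 gene identifiers. Of these, 33 were analysed, among 26984 genes in all, and the ferredoxin gene FD2 was not analysed here. By complex they were 13 genes of photosystem I, 12 of photosystem II, 6 of electron carriers and 2 of the ATP synthase. RNA was sequenced from seedlings of Arabidopsis thaliana aged 7 days, grown in short days and collected at ZT20, which is 20 hours after lights on and lies in the night. The groups, with 3 libraries each, were the cop1-6 mutant, the cor27cor28 double mutant and wild type Col-0, the common laboratory strain. COP1 encodes a ubiquitin ligase that removes light-signalling transcription factors in darkness, and cop1-6 is an allele of it, while COR27 and COR28 encode small proteins under the control of cold and the circadian clock. The labels name no transgene, clone or pool, and they do not say whether the libraries of a group came from separate batches of plants, so p-values reflect only how far these libraries spread.

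In the thylakoid membrane, photosystem II takes electrons from water and passes them through plastoquinone to the cytochrome b6f complex, plastocyanin carries them to photosystem I, and ferredoxin with its reductase FNR delivers them to NADP. The proton gradient built on the way drives the ATP synthase. The reaction-centre proteins themselves are encoded in the chloroplast genome, which is not analysed here, and the genes below encode the imported subunits around them. Transcripts of this class are known to be abundant in green tissue and to respond to light and to the circadian clock.

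Values are FPKM, fragment counts divided by transcript length and by library size, so levels of different genes are compared per length. The read depth of the libraries was not given in the sources used here. FPKM sums per library were 515929 to 532655 in cop1-6, 548055 to 562621 in libraries labelled cor27cor28 and 584878 to 612462 in wild type, and cop1-6 replicate 3 had 307 genes at least 2 times above both other libraries of its group, against 38 to 97 in each other library. None of the 307 was a photosystem or electron transport gene of the list. The genes named in the double mutant were not called lower there: COR27 averaged 48.7 ± 1.24 FPKM in libraries labelled cor27cor28 and 15.3 ± 2.55 FPKM in wild type, and COR28 (AT4G33980) averaged 2.23 ± 0.659 FPKM in libraries labelled cor27cor28 and 2.58 ± 0.597 FPKM in wild type (SD, n = 3 each). The position of the lesions is not in the labels, so these levels do not check the genotype, and the group is called by its label throughout. COP1 was not analysed here. The tissue label, seedling, was read against marker genes. Shoot epidermis and stomata markers were present in every library, at summed levels of 263 to 384 FPKM in cop1-6, 350 to 420 FPKM in libraries labelled cor27cor28 and 372 to 434 FPKM in wild type. The 15 root markers summed to 881 to 951 FPKM in cop1-6, 1563 to 1721 FPKM in libraries labelled cor27cor28 and 1273 to 1514 FPKM in wild type, most of it PYK10. Without PYK10, the other 14 summed to 41.8 to 46.1 FPKM in cop1-6. Those sums were 53.4 to 64.8 FPKM in libraries labelled cor27cor28 and 70.8 to 78.6 FPKM in wild type. Of the 15, 11 were under 1 FPKM in all 3 cop1-6 libraries, 5 in all 3 libraries labelled cor27cor28 and 6 in all 3 wild-type libraries. Among them, 2 (CASP5 and EXPA7) were listed at 0 in all 3 cop1-6 libraries. The endodermis genes CASP1 to CASP5 summed to 0.347 to 1.24 FPKM in cop1-6. Their sums were 16.8 to 22.8 FPKM in libraries labelled cor27cor28 and 25 to 32.5 FPKM in wild type. The root markers did not all go this way. Of the 9 tested, 7 were called lower in cop1-6 than in wild type and 1, SCR, higher. SCR averaged 26.4 ± 1.10 FPKM in cop1-6 and 17.4 ± 2.07 FPKM in wild type (limma adjusted p = 0.000262). In libraries labelled cor27cor28, 3 of the 9 were called lower than in wild type and 1, PYK10, higher on the deposited scale. The 5 seed markers summed to 8.95 to 21.1 FPKM in cop1-6, 0.231 to 1.22 FPKM in libraries labelled cor27cor28 and 0.150 to 1.91 FPKM in wild type. In bulk tissue, fewer cells of a type and less RNA per cell cannot be told apart, and the part of these marker differences in the results below was not tested.

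The photosystem and electron transport genes were among the most abundant transcripts of the seedling even late in the night. In wild type, 25 of the 33 were among the 100 genes with the highest mean FPKM, and 32 had at least 100 FPKM in every library of the study. PSBR (AT1G79040), a small subunit on the lumen side of photosystem II, led with 4219.9 ± 616 FPKM in wild type (SD, n = 3, as in all such values). DRT112, the main plastocyanin, followed with 3443 ± 289.8 FPKM, and the antenna-binding photosystem I subunit PSAG with 2766 ± 73.4 FPKM. These leading genes were not all separated from each other, as the wild-type libraries of PSBR (3709 to 4904 FPKM) and DRT112 (3207 to 3767 FPKM) overlapped. Of the 33 genes, 12 overlap another annotated gene, 10 of them one on the opposite strand. Averaged over all 9 libraries, the overlapping genes were at most at 69.5 FPKM, and whether the counting used strand was not given in the sources used here. The lowest was PSBP-2 (AT2G30790), the second copy of an extrinsic photosystem II protein, with 2.84 ± 1.42 FPKM, and the lowest of the abundant genes was the ferredoxin reductase FNR2 (AT1G20020) with 173 ± 10.1 FPKM. The 33 genes together took 7.08 ± 0.287% of the FPKM sum in cop1-6, 4.97 ± 0.151% in libraries labelled cor27cor28 and 7.21 ± 0.212% in wild type (SD, n = 3 each). The cor27cor28 shares lay below all others, and those of cop1-6 and wild type overlapped. By complex, photosystem I genes took 2.68 ± 0.0968% in cop1-6, 1.94 ± 0.0576% in libraries labelled cor27cor28 and 3.0 ± 0.122% in wild type. Carriers took 1.07 ± 0.0555% in cop1-6, 0.689 ± 0.0317% in libraries labelled cor27cor28 and 0.907 ± 0.0336% in wild type. Photosystem II genes took 2.93 ± 0.128% in cop1-6, 2.04 ± 0.0785% in libraries labelled cor27cor28 and 2.95 ± 0.124% in wild type. ATP synthase genes took 0.40 ± 0.0225% in cop1-6, 0.296 ± 0.0107% in libraries labelled cor27cor28 and 0.354 ± 0.0105% in wild type. In cop1-6 the photosystem I share was thus below every wild-type library. The carrier and ATP synthase shares were above every one, and the photosystem II shares overlapped. Of the 5607 FPKM summed over carriers in cop1-6, FD1 alone supplied 1199, against 569 of 5429 FPKM in wild type.

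**Figure D1:**
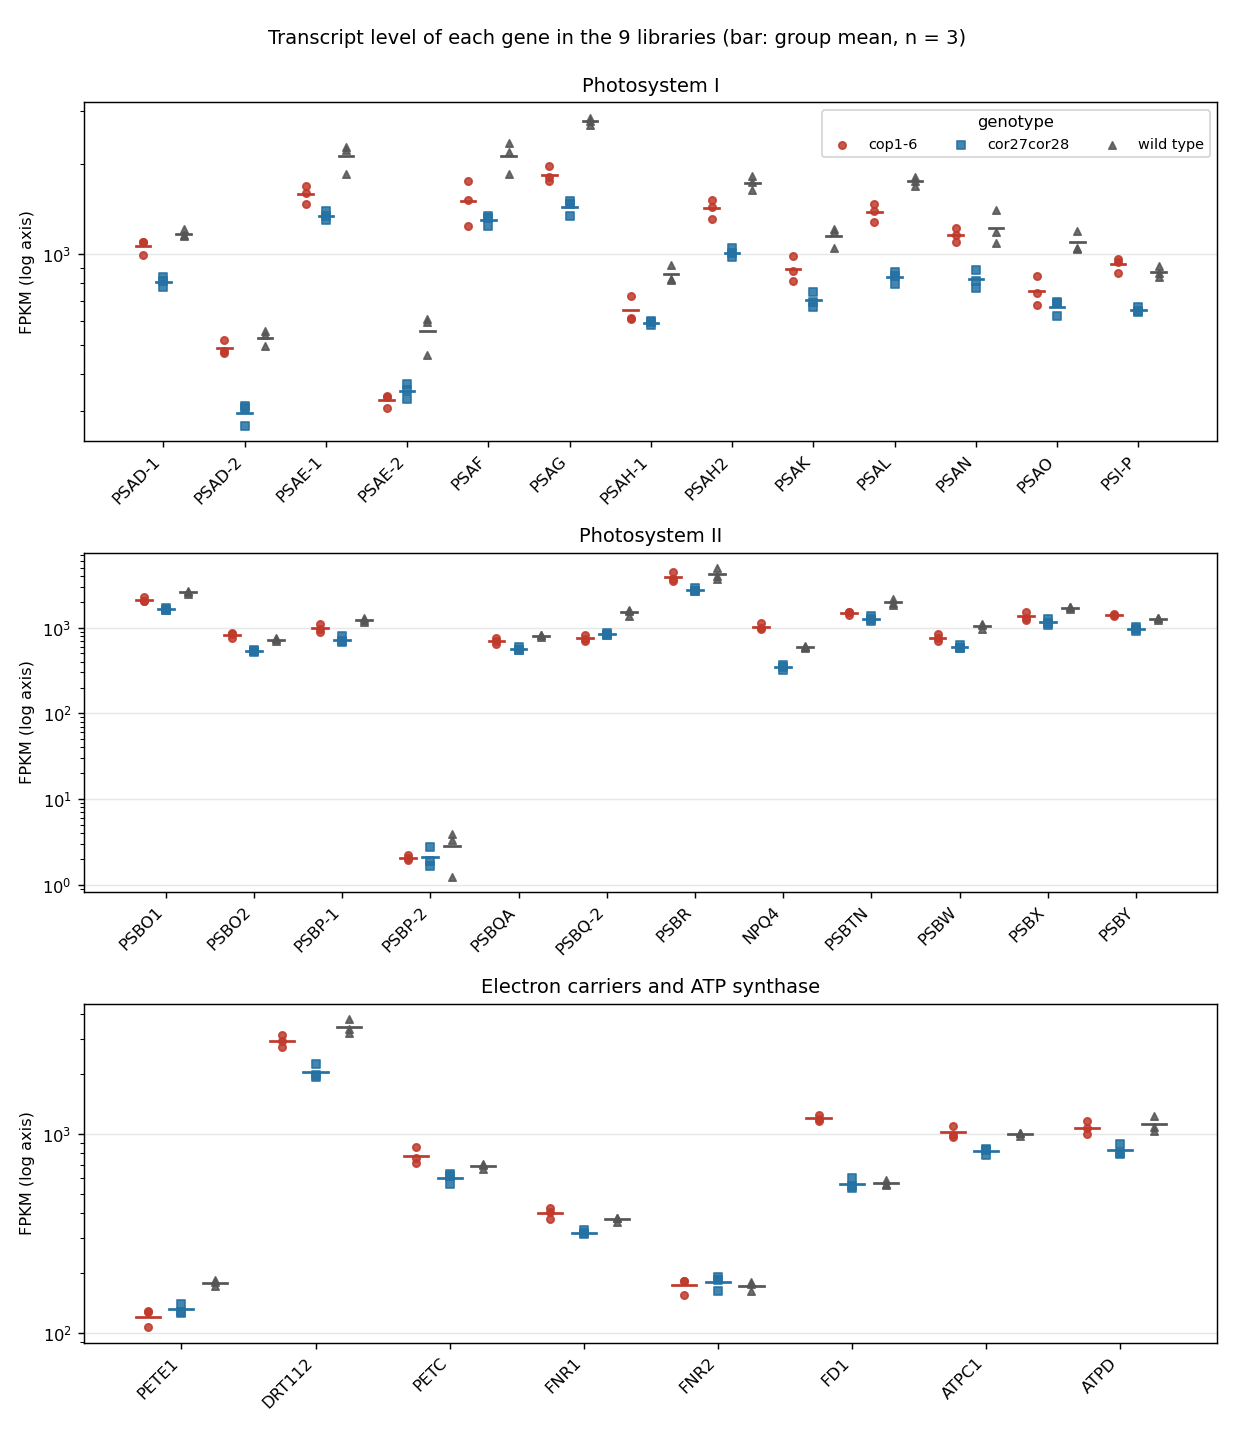
FPKM of each gene on a log axis in the 9 libraries, one panel for photosystem I, one for photosystem II and one for electron carriers with ATP synthase; points are libraries, bars are group means (n = 3). The cor27cor28 points lie below wild type for 30 genes, whereas cop1-6 lies above wild type for NPQ4 (952 to 1126 against 580 to 616 FPKM) and FD1 (1165 to 1250 against 557 to 590 FPKM).

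The stretch before the annotated start is shown for 4 genes that the results turn on. They are both copies of the extrinsic photosystem II subunit PSBQ, whose balance is compared between the groups, NPQ4, which had the highest difference between the mutants, and PSAL, which had the most negative change in libraries labelled cor27cor28. The sequences are 150 bases of the RefSeq TAIR10.1 reference, written 5′ to 3′ on the strand of the gene, and capitals mark the G-box CACGTG and the GATA motif GATAAG on either strand. PSBQ-2 lies on the minus strand and its stretch is chr4:2673244-2673393, and those of PSBQA (chr4:11334202-11334351), NPQ4 (chr1:16870071-16870220) and PSAL (chr4:7521107-7521256) are on the plus strand.
PSBQ-2: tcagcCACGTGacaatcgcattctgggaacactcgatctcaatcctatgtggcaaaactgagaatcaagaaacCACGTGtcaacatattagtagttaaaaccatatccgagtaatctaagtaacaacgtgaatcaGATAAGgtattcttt
PSBQA: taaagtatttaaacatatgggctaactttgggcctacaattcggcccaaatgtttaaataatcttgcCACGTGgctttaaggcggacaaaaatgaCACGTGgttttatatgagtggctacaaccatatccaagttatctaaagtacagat
NPQ4: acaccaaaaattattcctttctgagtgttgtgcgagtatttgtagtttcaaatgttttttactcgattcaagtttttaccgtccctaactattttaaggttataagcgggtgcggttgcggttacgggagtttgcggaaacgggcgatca
PSAL: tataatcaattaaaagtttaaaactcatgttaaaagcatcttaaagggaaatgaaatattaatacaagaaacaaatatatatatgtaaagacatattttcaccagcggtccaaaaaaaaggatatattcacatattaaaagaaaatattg
PSBQ-2 held CACGTG at 145 and 77 bases and GATAAG at 15 bases before its start, PSBQA held CACGTG at 83 and 55 bases, and the letters of neither motif were in the NPQ4 and PSAL stretches. In the 250 bases before the start, 7 of the 33 genes held CACGTG (21.2%) and 9 held GATAAG (27.3%), against 7.44% and 12.5% of all tested genes. The light-related motif SORLIP1, AGCCAC, was held by 5 (15.2% against 5.26%), CCAATC by 4 (12.1% against 10.6%) and the TATA letters TATAAA by 16 (48.5% against 45.7%). In PSBQ-2, PSBQA and PSBP-2 an AGCCAC match shares bases with a CACGTG match, so these 2 motifs are not separate counts. ACGT, which lies within CACGTG, was held by 17 (51.5% against 43.8%), the evening element AAAATATCT by 1 (3.03% against 2.47%) and the CCA1 site AAAAATCT by 2 (6.06% against 6.90%). These are matches of letters on both strands and no measure of binding. Of the genes with CACGTG, PSAE-2, PSAH2, PSBP-2, PSBQA, PSBTN and ATPD have another annotated gene overlapping their 250 bases. How often this held for all tested genes was not counted.

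In the libraries labelled cor27cor28, genes of every complex were lower than in wild type. Of the 33 genes, 29 fell and 0 rose by limma with a Benjamini-Hochberg adjusted p under 0.05 over all 17075 tested genes, of which 7.29% fell and 14.6% rose. The median log2 fold change was −0.61 over the 33 genes and 0.10 over all tested genes. The 3 libraries of each group did not overlap for 30 of the 33 genes, all lower, against 13.4% of tested genes. The number that fell was 30 after scaling libraries by the median of ratios (12.5% of tested genes) and 27 after setting all library totals equal (4.93%), and 27 genes fell under all 3 scalings. The median of all tested genes was then −0.014 and 0.19.

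All 13 photosystem I genes fell in libraries labelled cor27cor28, with a median log2 fold change of −0.70. Coordinates of genes are those of the RefSeq TAIR10.1 annotation. PSAL (AT4G12800, chr4:7521257-7522761), which with PSAH forms the docking side for antenna in state transitions, had 848, 794 and 869 FPKM in libraries labelled cor27cor28 and 1800.1, 1754 and 1691 FPKM in wild type. Every library labelled cor27cor28 was below every wild-type library. PSAL had the most negative change of the 33 genes, at −1.06 ± 0.080 SE (adjusted p = 2.7e-05). PSAG (AT1G55670, chr1:20802670-20803449) had 1505, 1345 and 1472 FPKM in libraries labelled cor27cor28 and 2840.0, 2693 and 2764 FPKM in wild type, without overlap. Its change was −0.94 ± 0.083 SE (adjusted p = 7.76e-05). PSAD-2 (AT1G03130, chr1:753307-754262), a copy of the stromal subunit at which ferredoxin docks, had 308, 268 and 312 FPKM in libraries labelled cor27cor28 and 554, 493 and 536 FPKM in wild type, also without overlap, and a change of −0.83 ± 0.083 SE (adjusted p = 0.000141). The other photosystem I genes ranged from −0.77 for PSAH2 to −0.42 for PSI-P (AT2G46820), also known as CURT1B, a thylakoid-curvature protein first described with photosystem I. PSI-P was thus the photosystem I gene with the smallest change, averaging 653 ± 14.5 FPKM in libraries labelled cor27cor28 and 874 ± 36.7 FPKM in wild type.

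Of the 12 photosystem II genes, 11 fell, with a median log2 fold change of −0.62. PSBQ-2 (AT4G05180, chr4:2671523-2673243), a copy of an extrinsic subunit at the oxygen-evolving complex, had 826, 862 and 825 FPKM in libraries labelled cor27cor28 and 1575, 1592 and 1368 FPKM in wild type. All libraries labelled cor27cor28 were lower, with a change of −0.85 ± 0.088 SE (adjusted p = 0.000156). PSBW (AT2G30570), a small membrane subunit that stabilises photosystem II supercomplexes, averaged 592 ± 24.2 FPKM in libraries labelled cor27cor28 and 1043 ± 78.3 FPKM in wild type and fell by 0.81 on the log2 scale. NPQ4 (AT1G44575, chr1:16870221-16873427), which encodes PsbS, the sensor of lumen acidity in the dissipation of excess light, had 365, 348 and 319 FPKM in libraries labelled cor27cor28 and 616, 593 and 580.5 FPKM in wild type. The groups did not overlap, and the change was −0.79 ± 0.084 SE (adjusted p = 0.000157). The extrinsic PSBO1, PSBO2 and PSBP-1 had changes of −0.66, −0.43 and −0.76, and the smallest of the 11 was that of the membrane subunit gene PSBY at −0.39. PSBP-2 did not pass the test, at 2.09 ± 0.561 FPKM in libraries labelled cor27cor28 and 2.84 ± 1.42 FPKM in wild type (adjusted p = 0.487). The wild-type libraries of this low gene ran between 1.24 and 3.93 FPKM and enclosed the others, and a gene on the opposite strand with a mean of 11.3 FPKM overlaps it.

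The electron carriers were split in libraries labelled cor27cor28, with 3 of 6 genes lower and a median of −0.21. DRT112 (AT1G20340, chr1:7042046-7043392) had 2243, 1923 and 1972 FPKM in libraries labelled cor27cor28 and 3356, 3767 and 3207 FPKM in wild type, without overlap, and fell by 0.75 ± 0.10 SE (adjusted p = 0.000622). PETE1 (AT1G76100, chr1:28553883-28554930), the minor plastocyanin, averaged 132 ± 7.20 FPKM in libraries labelled cor27cor28 and 179 ± 6.40 FPKM in wild type and had a change of −0.44. FD1 (AT1G10960, chr1:3664187-3665040), a ferredoxin, had 599, 536 and 550.5 FPKM in libraries labelled cor27cor28 and 561, 590.4 and 557 FPKM in wild type. These ranges overlapped, and the difference of −0.020 ± 0.074 SE did not pass the test (adjusted p = 0.869). FNR2 likewise overlapped, at 180.0 ± 14.5 FPKM in libraries labelled cor27cor28 and 173 ± 10.1 FPKM in wild type, with a difference of 0.052 ± 0.088 SE (adjusted p = 0.698). PETC (AT4G03280), the Rieske iron-sulphur protein, averaged 603 ± 35.7 FPKM in libraries labelled cor27cor28 and 691 ± 21.0 FPKM in wild type, without overlap. Its difference of −0.20 ± 0.085 SE did not pass (adjusted p = 0.117), although it did after median-of-ratios scaling (−0.33). FNR1 (AT5G66190) fell by 0.22 (adjusted p = 0.0415), a call lost with equalised totals (−0.12) and without any 1 of the 6 libraries compared. Both ATP synthase genes fell. ATPD (AT4G09650), the delta subunit, averaged 831 ± 53.5 FPKM in libraries labelled cor27cor28 and 1118 ± 106 FPKM in wild type. ATPC1 (AT4G04640), the gamma subunit, averaged 817 ± 32.0 FPKM in libraries labelled cor27cor28 and 998 ± 17.3 FPKM in wild type (adjusted p = 0.0195). The ATPC1 call was lost with equalised totals (−0.19, adjusted p = 0.0517) and without wild-type replicate 1 or 3 or cor27cor28 replicate 2 or 3 (adjusted p of 0.0502 to 0.0845).

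**Figure D2:**
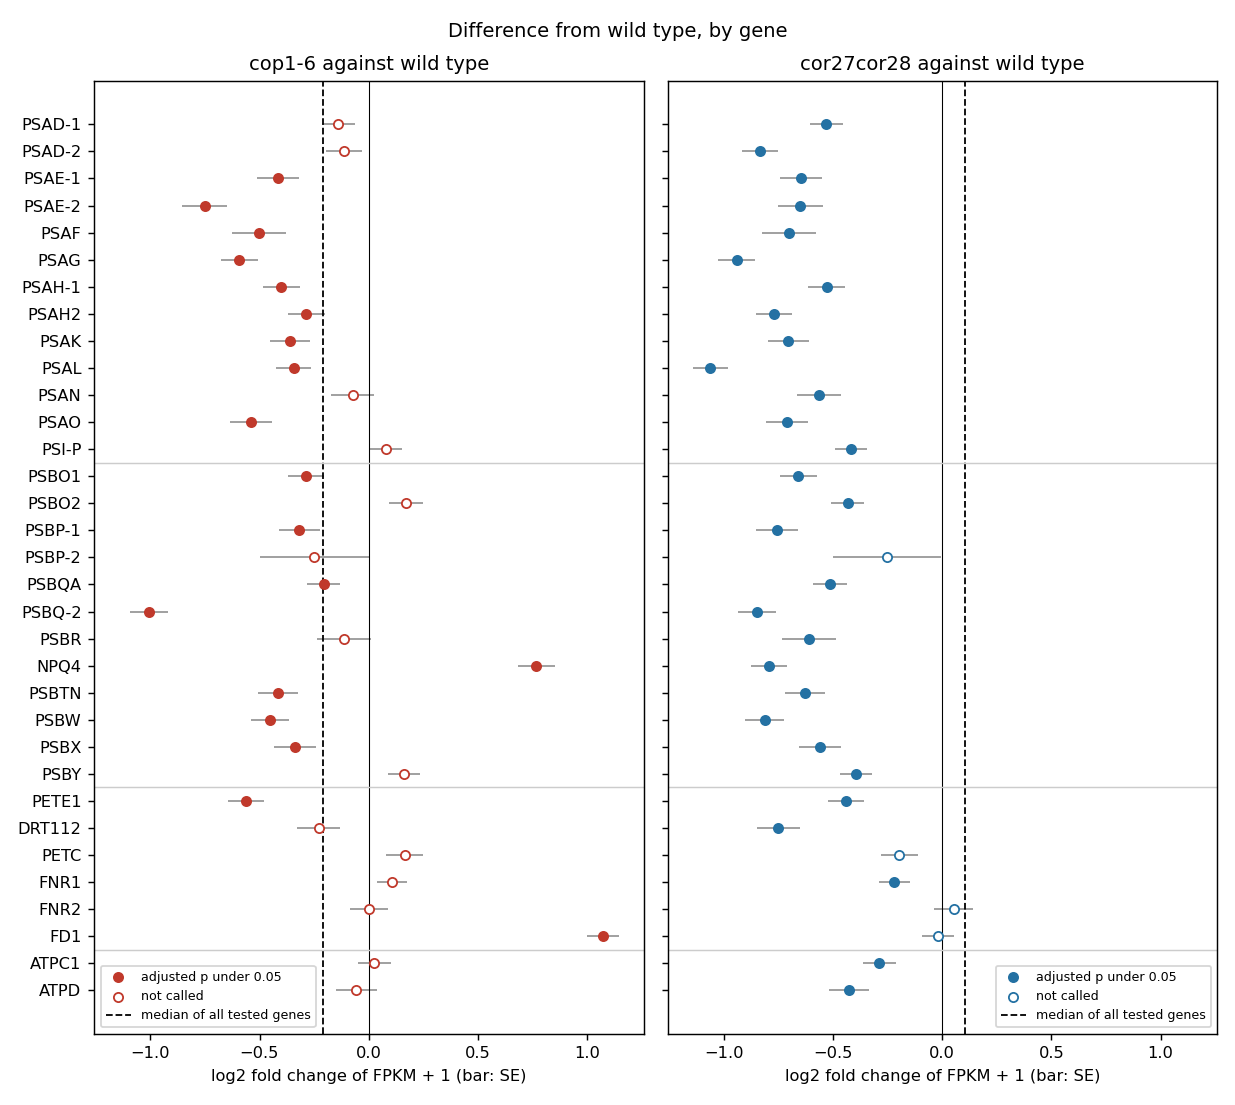
Log2 fold change of FPKM + 1 against wild type for each gene, cop1-6 in the left panel and cor27cor28 in the right, with bars of 1 SE; filled points passed an adjusted p of 0.05, and the dashed line is the median of all tested genes. On the right 29 points are filled and left of the line at 0.10, while on the left the points spread between −1.01 (PSBQ-2) and 1.07 (FD1) around a median of all genes of −0.21.

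In cop1-6 the genes did not move as a block. Of the 33, 2 rose and 17 fell, against 10.9% and 38.6% of all tested genes. The median log2 fold change was −0.25, beside −0.21 for all tested genes. The counts moved with the scaling: 9 rose and 5 fell after median-of-ratios scaling (all tested genes 22.5% and 20.5%), and 8 rose and 7 fell with equalised totals (17.5% and 23.6%). The median of all tested genes was then 0.0092 and −0.047. The share of the 33 genes that fell was thus above that of all tested genes on the deposited scale and below it under both others. The libraries of cop1-6 and wild type did not overlap for 4 genes that were higher and 19 that were lower, against 12.9% and 44.3% of tested genes. The genes called the same way under all 3 scalings were FD1 and NPQ4, which rose, and PSBQ-2, PSAE-2, PSAG, PETE1 and PSAO, which fell, and no gene was called in opposite directions. Without cop1-6 replicate 3, 3 rose and 15 fell, PSBO2 being the added gene (0.23, adjusted p = 0.0365).

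FD1 had 1181, 1249.9 and 1165 FPKM in cop1-6 and 561, 590.4 and 557 FPKM in wild type. Every cop1-6 library was above every wild-type library. The mean was 2.10 times that of wild type, and the log2 fold change of 1.07 ± 0.074 SE (adjusted p = 3.09e-07) was 1.33 after median-of-ratios scaling and 1.27 with equalised totals. The neighbouring gene TMN1 overlaps FD1 on the same strand. TMN1 had lower levels in cop1-6, at 51.2 ± 3.33 FPKM, than in wild type, at 78.0 ± 5.01 FPKM, and how reads of the overlap were assigned was not given in the sources used here.

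NPQ4 had 1126, 979.7 and 952 FPKM in cop1-6 and 616, 593 and 580.5 FPKM in wild type. All 3 cop1-6 libraries were higher, without overlap. NPQ4 rose by 0.77 ± 0.084 SE on the log2 scale (adjusted p = 1.32e-05), whereas it fell in libraries labelled cor27cor28. On the deposited scale NPQ4 was the one gene of the 33 called higher in one mutant and lower in the other. After median-of-ratios scaling PSI-P, PSBO2, PSBY, PETC, FNR1 and ATPC1 were also called higher in cop1-6 and lower in libraries labelled cor27cor28. With equalised totals PSI-P, PSBO2 and PSBY were. The difference of NPQ4 was tested directly between the mutants.

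PSBQ-2 had the most negative change of the 33 genes in cop1-6, with 819, 746 and 692 FPKM in cop1-6 and 1575, 1592 and 1368 FPKM in wild type. No cop1-6 library reached the wild-type range, and the log2 fold change of −1.01 ± 0.088 SE (adjusted p = 2.21e-06) was −0.74 and −0.81 under the other scalings. PSAE-2 (AT2G20260, chr2:8736734-8737767), a stromal photosystem I subunit at the ferredoxin site, had 339, 335 and 308 FPKM in cop1-6 and 595, 609 and 461 FPKM in wild type, without overlap. It fell by 0.75 ± 0.10 SE (adjusted p = 7.65e-05). PSAG averaged 1836 ± 110.5 FPKM in cop1-6 and 2766 ± 73.4 FPKM in wild type, a change of −0.59 ± 0.083 SE (adjusted p = 9.88e-05). PETE1 had 127, 129.6 and 107 FPKM in cop1-6 and 185, 179.7 and 172 FPKM in wild type, all lower in cop1-6, with a change of −0.56 ± 0.083 SE (adjusted p = 0.000142). PSAO (AT1G08380, chr1:2640803-2641934), a photosystem I subunit that binds mobile antenna, averaged 755 ± 85.3 FPKM in cop1-6 and 1094 ± 84.9 FPKM in wild type, a change of −0.54 ± 0.096 SE (adjusted p = 0.000559).

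By complex, 9 of 13 photosystem I genes fell in cop1-6 and 0 rose on the deposited scale (median −0.36), against 3 and 1 with either other scaling. Of 12 photosystem II genes, 7 fell and 1 rose (median −0.27), against 1 and 3 after median-of-ratios scaling and 3 and 3 with equalised totals. Of 6 carriers, 1 fell and 1 rose (median 0.054), against 1 and 4, and 1 and 3. Of all tested genes, 38.6% fell and 10.9% rose on the deposited scale. These shares were 20.5% and 22.5% after median-of-ratios scaling and 23.6% and 17.5% with equalised totals. No test of a complex against these shares was made. Neither ATP synthase gene passed the test, with averages of 1017 ± 70.1 FPKM for ATPC1 in cop1-6 and 998 ± 17.3 FPKM in wild type. ATPC1 was called higher under both other scalings (0.29 and 0.22). PSBO2, PSBY, PETC, FNR1 and PSI-P had differences of 0.080 to 0.17 that did not pass on the deposited scale, and all 5 were called higher under both other scalings. PSBQA (AT4G21280, chr4:11334352-11335815) had 749.8, 701 and 649 FPKM in cop1-6 and 828, 821 and 771 FPKM in wild type. Its groups did not overlap on the deposited scale, where it fell by 0.21 (adjusted p = 0.0415), but its sign turned to 0.055 after median-of-ratios scaling.

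**Figure D3:**
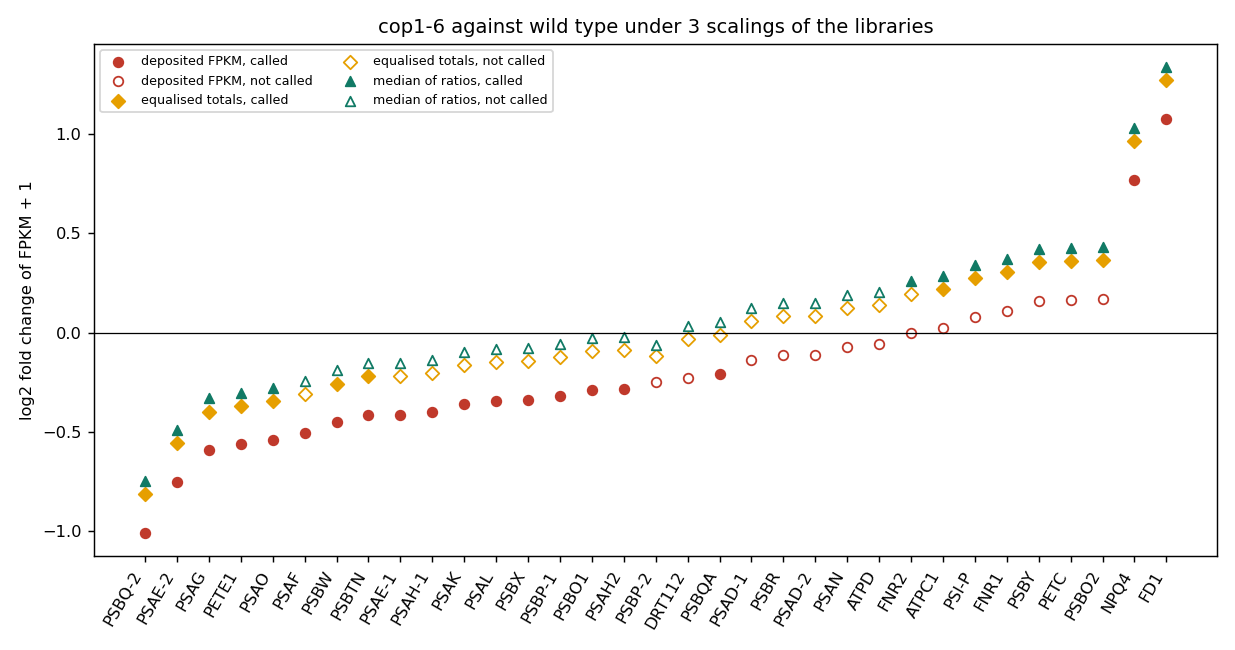
Log2 fold change of FPKM + 1 in cop1-6 against wild type for each of the 33 genes under 3 scalings of the libraries, with filled symbols for an adjusted p under 0.05. The values lie higher under both other scalings than on the deposited scale for every gene, and FD1, NPQ4, PSBQ-2, PSAE-2, PSAG, PETE1 and PSAO keep filled symbols throughout.

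Set directly against the libraries labelled cor27cor28, most photosystem and electron transport genes were higher in cop1-6. Of the 33, 23 were called higher and 0 lower, while of all tested genes 9.19% were higher and 56.6% lower. The median log2 fold change was 0.36 over the 33 genes and −0.36 over all tested genes. The same 23 were called higher under all 3 scalings, with 29 after median-of-ratios scaling (19.4% of tested genes) and 27 with equalised totals (10.8%). The median of all tested genes was then −0.024 and −0.29. The libraries did not overlap for 25 genes that were higher and 1, PSBQ-2, that was lower, against 9.94% and 59.8% of tested genes. NPQ4 had 1126, 979.7 and 952 FPKM in cop1-6 and 365, 348 and 319 FPKM in libraries labelled cor27cor28, a ratio of means of 2.96. Its difference of 1.56 ± 0.084 SE was the highest of the 33 (adjusted p = 4.51e-08). FD1 differed by 1.09 ± 0.074 SE (adjusted p = 3.34e-07), with averages of 1199 ± 45.2 FPKM in cop1-6 and 562 ± 33.2 FPKM in libraries labelled cor27cor28. PSAD-2 averaged 488 ± 27.5 FPKM in cop1-6 and 296 ± 24.3 FPKM in libraries labelled cor27cor28. PSAL averaged 1380.0 ± 93.1 FPKM in cop1-6 and 837 ± 39.0 FPKM in libraries labelled cor27cor28, and both genes had a difference of 0.72.

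PSBQ-2, PSAE-2 and PETE1 were among the 10 genes not called in the direct comparison. PSBQ-2 had 819, 746 and 692 FPKM in cop1-6 and 826, 862 and 825 FPKM in libraries labelled cor27cor28, a difference of −0.16 ± 0.088 SE (adjusted p = 0.128). PSAE-2 differed by −0.10 ± 0.10 SE and PETE1 by −0.12 ± 0.083 SE, each with overlapping libraries. The signs of PSBQ-2, PSAE-2 and PETE1 turned positive after median-of-ratios scaling (0.24, 0.30 and 0.27), where they did not pass the test either. FNR2 differed by −0.052 ± 0.088 SE (adjusted p = 0.61) and was called higher in cop1-6 after median-of-ratios scaling (0.34, adjusted p = 0.0092).

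Several subunits are encoded by a pair of gene copies, and the ratio of their FPKM within a library does not depend on library scaling. For the ratio of FPKM + 1 used here that holds only nearly. It holds least for the PSBP pair, whose second copy is near 2 FPKM. For 8 pairs the log2 ratio of FPKM + 1 was compared by a two-sided exact permutation test. With 3 libraries against 3 no p below 0.1 is possible, and none was, so no difference can pass 0.05 (adjusted p of at least 0.141 over 24 comparisons). The copies shared 79.1% to 87.9% of their aligned transcript bases, and their longest identical run was 17 to 35 bases, and whether reads were shared between copies was not tested. The balance of the PSBQ copies stood furthest from wild type in cop1-6. The log2 ratio of PSBQA to PSBQ-2 was −0.13, −0.088 and −0.094 in cop1-6, −0.49, −0.64 and −0.58 in libraries labelled cor27cor28 and −0.93, −0.96 and −0.83 in wild type. The groups did not overlap, and PSBQA thus had a mean ratio of 0.931 ± 0.0133 of PSBQ-2 in cop1-6, 0.673 ± 0.0342 in libraries labelled cor27cor28 and 0.535 ± 0.0254 in wild type. For the manganese-stabilising proteins, PSBO1 had 2.59 ± 0.168 times the level of PSBO2 in cop1-6, 3.04 ± 0.0471 times in libraries labelled cor27cor28 and 3.55 ± 0.0887 times in wild type, again without overlap. PSAE-1 had 4.83 ± 0.154 times the level of PSAE-2 in cop1-6, 3.84 ± 0.346 times in libraries labelled cor27cor28 and 3.82 ± 0.156 times in wild type, where only cop1-6 stood apart. PETE1 had 0.0413 ± 0.00219 of the level of DRT112 in cop1-6, 0.0645 ± 0.00185 in libraries labelled cor27cor28 and 0.0522 ± 0.00397 in wild type, so the mutants lay on opposite sides of wild type without overlap. Of the 8 pairs, 4 did not overlap between cop1-6 and wild type, 6 between the libraries labelled cor27cor28 and wild type, and 7 between the mutants. How often ratios of other gene pairs did not overlap was not tested, so whether these counts are unusual is not known. Among single tested genes, 12.9% were higher and 44.3% lower without overlap between cop1-6 and wild type. Between the mutants these shares were 9.94% and 59.8%. Between the libraries labelled cor27cor28 and wild type, 13.4% were lower without overlap, and the share that was higher is not given here. All these shares are of single-gene levels on the deposited scale, so they are no like background for ratios.

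**Figure D4:**
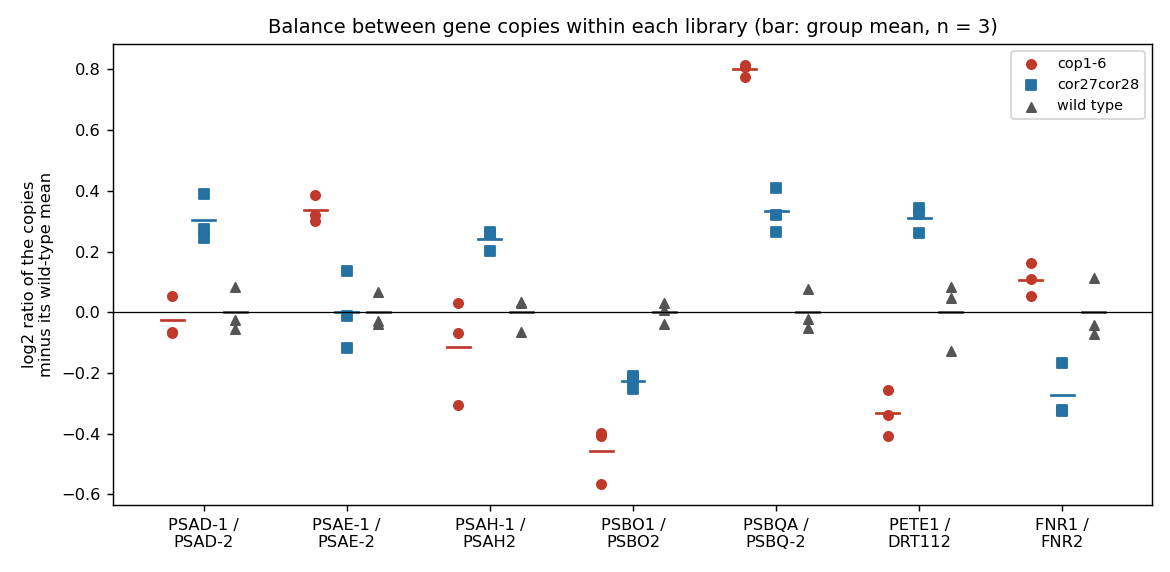
Log2 ratio of the FPKM + 1 of both copies within each library, minus its wild-type mean, for 7 pairs; points are libraries and bars group means (n = 3). PSBQA over PSBQ-2 lies 0.80 above wild type in cop1-6 and 0.33 above it in cor27cor28, and PETE1 over DRT112 lies 0.33 below wild type in cop1-6 and 0.31 above it in cor27cor28. The PSBP pair, whose second copy is near 2 FPKM, is not plotted.

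Genes that build and run the same membrane were read from 4 further lists. Of all tested genes, 10.9% rose and 38.6% fell in cop1-6, and 14.6% and 7.29% in libraries labelled cor27cor28. For cop1-6 these shares were 22.5% and 20.5% after median-of-ratios scaling and 17.5% and 23.6% with equalised totals. For libraries labelled cor27cor28, 1260 of 17034 tested genes rose and 2125 fell after median-of-ratios scaling. With equalised totals, 4322 of 17067 tested genes rose there and 841 fell. No list, here or below, was tested against these shares, and some counts of the short lists lie near them. The NDH complex carries electrons from ferredoxin back to plastoquinone. Of its 17 nuclear genes, 14 fell and 0 rose in libraries labelled cor27cor28 (median −0.44), and 7 rose and 2 fell in cop1-6 (median 0.15), where median-of-ratios scaling gave 12 and 0 and equalised totals gave 11 and 1. PnsB2 had 85.7, 71.5 and 71.6 FPKM in cop1-6 and 36.2, 39.6 and 39.8 FPKM in wild type, without overlap (log2 fold change 0.96 ± 0.086 SE, adjusted p = 2.6e-06). PnsB1 averaged 182 ± 10.9 FPKM in cop1-6 and 114 ± 5.61 FPKM in wild type. NdhT averaged 43.9 ± 1.75 FPKM in cop1-6 and 25 ± 1.13 FPKM in wild type. NdhO, a subunit on the stromal side, averaged 222 ± 5.06 FPKM in libraries labelled cor27cor28 and 355 ± 19.5 FPKM in wild type (log2 fold change −0.67 ± 0.097 SE, adjusted p = 0.000876).

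Of 19 genes for assembly and repair of the photosystems, 8 rose and 2 fell in cop1-6 (median 0.15; 14 and 0 after median-of-ratios scaling and with equalised totals, 9 and 1 without cop1-6 replicate 3), and 1 rose and 6 fell in libraries labelled cor27cor28 (median −0.17; 0 and 9 after median-of-ratios scaling, 4 and 4 with equalised totals). HCF173, which is needed for translation of the chloroplast message of the D1 protein, had 166, 159.6 and 144 FPKM in cop1-6 and 78.7, 77.3 and 80.3 FPKM in wild type. All cop1-6 libraries were above all wild-type libraries, with a log2 fold change of 0.98 ± 0.071 SE (adjusted p = 4.5e-07). Its partner HCF244 averaged 143 ± 14.4 FPKM in cop1-6 and 70.5 ± 4.78 FPKM in wild type, a change of 1.01 ± 0.083 SE (adjusted p = 1.34e-06). PSB28, an assembly factor of photosystem II, averaged 243 ± 20.4 FPKM in cop1-6 and 134 ± 13.6 FPKM in wild type. PSB27, another assembly factor, averaged 178 ± 19.0 FPKM in libraries labelled cor27cor28 against 264 ± 13.5 FPKM in wild type (log2 fold change −0.57 ± 0.084 SE, adjusted p = 0.00103), and HCF173 averaged 61.1 ± 1.39 FPKM there against 78.8 ± 1.49 FPKM in wild type (log2 fold change −0.36 ± 0.071 SE, adjusted p = 0.00463).

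Of 11 further carrier, cyclic-flow and ATP synthase genes, 2 rose and 3 fell in libraries labelled cor27cor28 (with median-of-ratios scaling, 1 and 5). In cop1-6, 1 rose and 1 fell (3 and 0 after median-of-ratios scaling, 2 and 0 with equalised totals). RFNR1, a ferredoxin reductase of root type, had 48.5, 61.8 and 57.1 FPKM in libraries labelled cor27cor28 and 15.9, 19.6 and 25 FPKM in wild type. All libraries labelled cor27cor28 were higher, with a change of 1.44 ± 0.20 SE (adjusted p = 0.000747). In cop1-6 RFNR1 averaged 30.4 ± 8.79 FPKM and overlapped wild type, at 20.2 ± 4.57 FPKM, and its call (adjusted p = 0.0363) was lost without cop1-6 replicate 3. PGR5, which takes part in cyclic electron flow around photosystem I, averaged 107 ± 4.8 FPKM in libraries labelled cor27cor28 and 162 ± 14.8 FPKM in wild type, a change of −0.59 ± 0.078 SE (adjusted p = 0.000613). Of 7 thylakoid kinase, phosphatase and CURT1 genes, 1 rose and 2 fell in cop1-6 (2 and 0 under both other scalings, 1 and 1 without cop1-6 replicate 3), and 1 rose and 3 fell in libraries labelled cor27cor28. The state-transition kinase gene STN7 averaged 72.2 ± 6.13 FPKM in cop1-6 and 50.3 ± 4.81 FPKM in wild type (log2 fold change 0.51 ± 0.093 SE, adjusted p = 0.00065).

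Beside these, 18 of 20 antenna genes fell and 0 rose in libraries labelled cor27cor28 (median −0.97), and 12 fell and 6 rose in cop1-6 (median −0.37; 5 and 8 after median-of-ratios scaling, 8 and 7 with equalised totals). Of 5 genes for the Rubisco small subunit and activase, 4 fell in libraries labelled cor27cor28 (median −0.38), and 2 rose and 0 fell in cop1-6 (median 0.21; 4 and 0 under both other scalings, with medians of 0.48 and 0.41). Both mutant comparisons share the wild-type libraries, and no test was made between lists.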

How the data were processed

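Seedling RNA of 9 libraries was analysed, 3 each of cop1-6, cor27cor28 and wild type, grouped by their titles. Per the labels, RNA was extracted with RNAiso Plus and libraries were made by standard Illumina protocols. The deposited values are FPKM, 1 per gene and library, made by the authors. The TAIR10 build, DESeq 1.18.0, Cufflinks, Bowtie2, TopHat, HISAT2 2.2.1.0 and Trimmomatic 0.36 stand in the submitters' processing notes without roles. Which tool made the FPKM and whether strand was used was not given in the sources used here. FPKM carries no read depth, so no counting interval was computed. The spacing of low values gave depths of 0.998 to 1.06 relative to wild-type replicate 1. That search covered only a limited range around equal depth, so a large difference could not have been found by it. Each file held 26997 entries, of which 13 carried no gene name, held at most 0.00203% of the FPKM sum and were left out.

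The 17075 genes that reached 1 FPKM in 3 or more libraries were fitted in limma 3.58.1 under R 4.3.3 on log2(FPKM + 1), with all 9 libraries in one model and a variance trend. Calls use a Benjamini-Hochberg adjusted p under 0.05 over all tested genes. Fold changes are on that log2 scale, which understates the change of low genes. Group values are mean ± SD over 3 libraries. Calling was first tested on simulated data. Alternatives were other pseudocounts, filters and scalings, a replicate block, a fit on 6 libraries, no variance trend and leaving out each library. Copy ratios were compared with exact permutation tests. Coordinates and sequences come from RefSeq TAIR10.1, matched by identifier for all 26984 genes, and the files hold no coordinates.

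The genes, lists, shown sequences and motifs were chosen with earlier results of these data known. Any listed gene could be named, as could COR27, COR28 and all marker genes, and of each pathway list up to 3 called genes per comparison with the lowest adjusted p. TMN1 was named outside this rule for its overlap with FD1. PGRL1A was not analysed here.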

Additional observations from a re-analysis of the deposited data

How the results depend on the processing

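Scaling was the choice that moved the results most. For cop1-6 against wild type, the 2 genes that rose and 17 that fell became 9 and 5 after median-of-ratios scaling and 8 and 7 with equalised totals, and PSBQA turned to 0.055 under median-of-ratios scaling. Both scalings multiply each library by 1 factor, which raises every cop1-6 value relative to wild type. For cop1-6 against cor27cor28, FNR2 turned to 0.34 under median-of-ratios scaling. Counts for single complexes and lists moved with the scalings too, and for cop1-6 against wild type they are given beside them. For cor27cor28 against wild type, 4 carriers fell after median-of-ratios scaling and 2 with equalised totals. In that order, the numbers were 2 and 1 for ATP synthase genes, 15 and 12 for NDH genes and 19 and 18 for antenna genes. They were 5 and 3 for Rubisco genes and 4 and 3 for thylakoid kinase, phosphatase and CURT1 genes. For the 33 genes as a whole, all other counts of calls stayed within 1.5 times under the pseudocounts of 0.1 and 5, the filters, the scalings, the fit on 6 libraries and the fit without a variance trend. Leaving out each library in turn gave 2 to 3 genes higher and 13 to 17 lower in cop1-6 against wild type, 0 higher and 27 to 29 lower in cor27cor28 against wild type, and 22 to 25 higher and 0 lower in cop1-6 against cor27cor28. The lowest of these for cop1-6, 13, came without wild-type replicate 1, where PSAH2, PSBO1, PSBP-1 and PSBQA lost their calls (adjusted p = 0.0632, 0.0569, 0.0613 and 0.13), and PSBQA was also lost without wild-type replicate 2 or cop1-6 replicate 2 or 3 (0.0638 to 0.158). PSBP-1 was lost without cop1-6 replicate 2 (0.0540) and PSAH2 without cop1-6 replicate 3 (0.0574). PSBP-2, near 2 FPKM, was called lower in both mutants without wild-type replicate 2 (−0.60 in each). Against cor27cor28, PSAE-1 lost its call without any 1 of 5 libraries (0.0695 to 0.142). The replicate block gave 2 higher and 17 lower in cop1-6 against wild type, 0 and 28 in cor27cor28 against wild type, where FNR1 was lost (adjusted p = 0.0622), and 24 and 0 between the mutants. Same-numbered libraries correlated at −0.184 to 0.125 in their deviations from the group means, which gives no sign of pairing by number. Whether same-numbered libraries were grown or prepared together is not in the labels, and these values cannot decide it. Over the single genes and all settings, and not counting the sign changes of PSBQA and FNR2 under median-of-ratios scaling, calls were lost in 34 cases and gained in 16 for cop1-6 against wild type, in 15 and 2 for cor27cor28 against wild type and in 7 and 18 for cop1-6 against cor27cor28. Depth is unknown, which limits what can be said of PSBP-2.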
